A study of Mus musculus with 2 samples.

Results

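The 6 genes described here are Pou1f1, which encodes a pituitary transcription factor, and 5 genes studied with it: the hormone genes Prl (prolactin) and Gh (growth hormone), and Hepacam2, Pappa2 and Peg10. They were taken by symbol from the 31055 features of 2 count matrices, in which each symbol matched 1 feature. They were chosen by measured values, the UMI counts of these libraries, as earlier results on them were known when the list was made, so all values below are descriptions and carry no test. The matrices hold 1 male and 1 female single-cell library of Sox9iresGFP/+ mouse pituitaries at postnatal day 3 (P3), pooled within each sex and sorted for GFP. Both libraries share the genotype, the age and the sort, and no treatment is named for either. The reporter sits at the Sox9 locus, which is active in pituitary stem cells (SCs). The gate can also hold cells that have stopped making SOX9 but still carry GFP, and it cannot stand for all POU1F1+ cells of the gland. With 1 library per sex, the sex, the animals, the sort and the library cannot be told apart.

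POU1F1 acts in the anterior pituitary, and is required for somatotrophs, lactotrophs and thyrotrophs, the cells that make growth hormone, prolactin and thyroid-stimulating hormone. It binds AT-rich sites in the promoters of Gh, Prl and Tshb and in its own gene. In rodents, growth hormone is abundant before prolactin, and most lactotrophs form after birth. Of the other members, Hepacam2 encodes a membrane protein of the immunoglobulin family, Pappa2 a protease that cleaves insulin-like growth factor binding proteins, and Peg10 is an imprinted gene, expressed from the paternal allele, that derives from a retrotransposon.

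Pou1f1 lies at chr16:65520511-65535005 (plus strand), Prl at chr13:27057570-27065205 (plus), Gh at chr11:106300271-106301865 (minus), Hepacam2 at chr6:3457096-3498298 (minus), Pappa2 at chr1:158711727-158980490 (minus) and Peg10 at chr6:4747306-4760517 (plus), all on mm10. All 6 are protein-coding. A non-coding gene overlaps Pou1f1 (Gm49631), Prl (Gm47888) and Pappa2 (1600012P17Rik), the last on the same strand, so reads in that overlap could be assigned to either gene. The 250 bases before the start of Prl and of Pou1f1 are shown because these genes lie at the ends of the pathway that the results follow, the factor and a hormone gene that it binds. They come from RefSeq on GRCm38.p6, plus strand, at chr13:27057320-27057569 and chr16:65520262-65520511, with capitals marking TATNCAT or its reverse complement ATGNATA, a core of the POU1F1 site.
Prl: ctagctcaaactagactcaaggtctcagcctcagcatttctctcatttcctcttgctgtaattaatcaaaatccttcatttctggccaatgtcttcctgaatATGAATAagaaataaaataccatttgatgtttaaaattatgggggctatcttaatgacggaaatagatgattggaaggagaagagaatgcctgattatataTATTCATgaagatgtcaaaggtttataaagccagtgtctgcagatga
Pou1f1: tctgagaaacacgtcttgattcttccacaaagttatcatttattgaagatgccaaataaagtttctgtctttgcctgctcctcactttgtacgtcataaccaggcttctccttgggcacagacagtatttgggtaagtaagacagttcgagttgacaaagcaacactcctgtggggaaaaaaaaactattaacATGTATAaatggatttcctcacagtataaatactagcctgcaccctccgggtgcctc
The Prl stretch holds ATGAATA with its first base 148 bases before the start and TATTCAT at 47 bases. The Pou1f1 stretch holds 1 match, ATGTATA at 57 bases. Of the 4 members with an entry, Pappa2 held TATCCAT at 205 bases, and neither Hepacam2 nor the second annotated start of Pou1f1 held a match. Of 32851 promoter stretches of this length, 2603 (7.92%) held at least 1 match and 415 (1.26%) at least 2, the number seen at Prl. These matches describe letters, not binding in these cells.

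After filtering, the male library held 10410 barcodes, each taken as a cell, with 105883748 unique molecular identifiers (UMIs, each counting 1 captured RNA molecule), and the female library 5711 barcodes with 62830305 UMIs. The median barcode had 8902.5 UMIs in the male library and 9789 in the female. Barcodes under 2000 UMIs made up 25.4% of the male but 1.68% of the female library, so that shares of barcodes with a UMI are also given after each barcode was thinned to 5000 UMIs, which leaves out 3627 male and 287 female barcodes. The 2 libraries had 19 barcode sequences in common. Levels are given in CPM, the UMIs of a gene scaled to 1000000 UMIs of all genes in the barcodes named. All intervals are 95% intervals for counting error only (exact Poisson for levels, exact Clopper-Pearson for shares).

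Pou1f1 was found in 1260 male barcodes, or 12.1% (interval 11.5 to 12.7), and in 369 female barcodes, or 6.46% (5.84 to 7.13). After thinning these shares were 11.1% and 5.41%. Its level was 110 CPM (108 to 112) in the male library and 48.4 (46.7 to 50.2) in the female, a ratio of 2.27 (2.15 to 2.40). Barcodes with a Pou1f1 UMI had a median of 5 of them in the male library and 7 in the female, and a maximum of 83 and 50. Pou1f1 was thus spread over many barcodes: the 1% of barcodes with the most Pou1f1 held 31.7% (male) and 40.4% (female) of its UMIs.

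The hormone genes were distributed otherwise. Gh was found in 3059 male (29.4%) and 1688 female barcodes (29.6%), more than any other member, but 64.2% and 61.4% of these had a single Gh UMI. The 56 male and 28 female barcodes with 1000 or more Gh UMIs held 91.8% and 92.4% of all Gh UMIs, and the highest had 9033 and 9200. The Gh level was 2634 CPM (2624 to 2644) in the male library and 2401 (2389 to 2413) in the female. With 28.8% of the male and 49.0% of the female Gh UMIs in 10 barcodes, the level of a library turned on a small number of cells.

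Prl was found in 329 male barcodes (3.16%, and 1.90% after thinning) but in only 24 female barcodes (0.420%, and 0.294% after thinning). Its level was 143 CPM (140 to 145) in the male library and 10.9 (10.1 to 11.8) in the female, 13.1-fold (11.9 to 14.3) higher in the male, the widest gap between the libraries among the 6 genes. Again a few barcodes carried it: 67 male and 7 female barcodes had 10 or more Prl UMIs, 29 and 4 had 100 or more, and the highest had 2498 and 164. The 10 barcodes with the most Prl held 63.1% of Prl UMIs in the male library and 96.8% in the female.

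The remaining members had lower counts per barcode. Peg10 was found in 1172 male (11.3%) and 507 female barcodes (8.88%), at 37.2 (36.1 to 38.4) and 17.7 (16.7 to 18.8) CPM, with at most 60 and 42 UMIs in a barcode. Hepacam2 was found in 397 male (3.81%) and 78 female barcodes (1.37%), at 6.78 (6.29 to 7.30) and 1.91 (1.58 to 2.28) CPM, and no barcode had more than 10. Pappa2 was the rarest in the male library, with 60 barcodes (0.576%) and 0.642 CPM (0.499 to 0.814), and the only member with a lower level in the male than in the female library, where 65 barcodes (1.14%) and 1.53 CPM (1.24 to 1.87) were found. For Hepacam2 and Pappa2, barcodes without a UMI cannot be told from barcodes that express the gene at a low level.

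**Figure D1:**
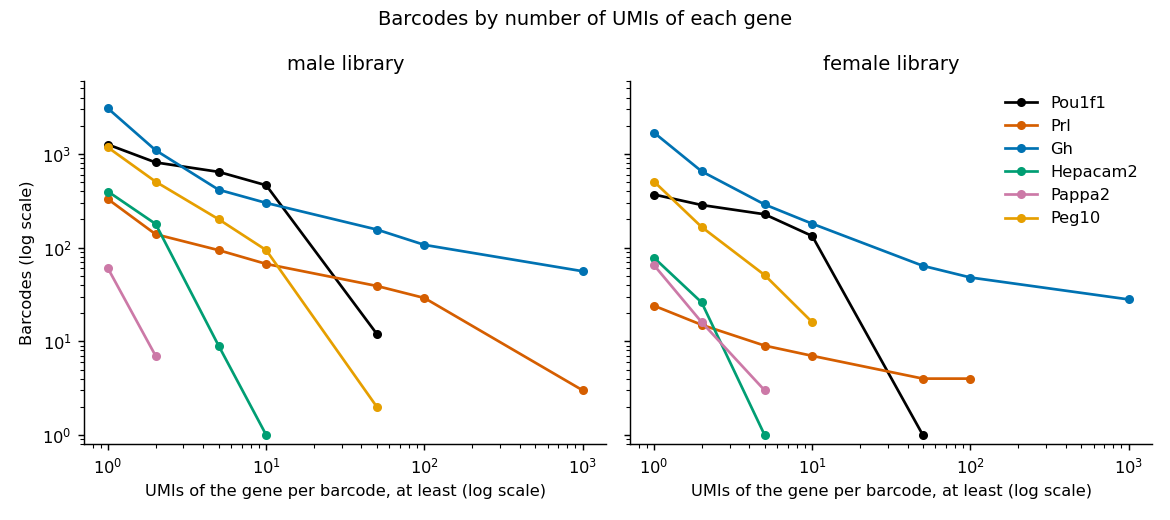
Number of barcodes (vertical axis, log scale) with at least the given number of UMIs of each of the 6 genes (horizontal axis, log scale) in the male and the female library. Gh and Prl reach 1000 or more UMIs in 56 and 3 male barcodes, whereas Pou1f1 stays at or below 83 UMIs and Hepacam2 and Pappa2 at or below 10.

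Barcodes with more Pou1f1 UMIs had higher levels of Hepacam2 and Peg10 in both libraries. In the male library, Hepacam2 was at 0.438 CPM in the 9150 barcodes without Pou1f1, at 3.41 in the 448 with 1 Pou1f1 UMI, at 17.6 in the 134 with 2 to 3, and at 54.4 in the 678 with 4 or more. In the female library the same steps gave 0.0866, 1.85, 13.6 and 30.3 CPM in 5342, 84, 42 and 243 barcodes. Peg10 went over the steps from 11.5 to 23.8, 93.9 and 229 CPM in the male library and from 8.99 to 30.5, 62.3 and 151 in the female. Both genes were thus highest where Pou1f1 was highest.

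Gh, Prl and Pappa2 did not follow the number of Pou1f1 UMIs step by step. Gh was highest in barcodes with 2 to 3 Pou1f1 UMIs, at 29451 CPM in the male library and 86887 in the female, and lower, at 16908 and 27045, in those with 4 or more. Prl was likewise highest at 2 to 3 Pou1f1 UMIs in the male library, at 3925 CPM against 827 with 4 or more, whereas in the female library the values were 5.84 and 155 from far fewer Prl UMIs. Pappa2 was at 3.21 and 2.71 CPM in these classes of the male and at 15.6 and 14.0 in the female library, all above the 0.303 and 0.624 of barcodes without Pou1f1. The number of Pou1f1 UMIs also moves with depth: the median barcode had 8477.5 UMIs without Pou1f1 and 13861 with 2 or more in the male library, and 9632 and 12512 in the female library.

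In barcodes with 2 or more Pou1f1 UMIs, SC genes were lower and several secretory granule genes higher than in barcodes without Pou1f1. A gene was called at a 2-fold ratio of levels, with 5 CPM added to both, which is a rule of size and not a test; 2.24% of 9274 genes were called higher and 3.16% lower in the male library, and 3.87% of 9266 higher and 5.61% lower in the female library. In both libraries at once, 1.94% of 8602 genes were higher and 2.89% lower. Of the members whose levels passed the filter, Hepacam2 had ratios of 10.3 and 6.52 and Peg10 of 13.4 and 10.3, and Pappa2 reached 3.42 in the female library and was under the filter on low levels in the male library. Of 5 SC genes, 4 were called lower in each library, with a list median of 0.372 and 0.256 against 1.03 and 1.01 over all genes; Sox2, which marks SCs, was at 158 against 413 CPM in the male library and at 149 against 594 in the female. The reporter was lower as well, with eGFP at 7.49 against 15.0 and at 2.99 against 12.3 CPM. Of 8 cycling genes, none was called in the male library and 3 were called lower in the female library. Of 10 secretory granule genes, 3 of the 8 that passed the filter were higher and 1 lower in the male library, and 7 of 9 higher and 1 lower in the female library. Chgb, a granin of dense-core granules, was at 1005 against 119 CPM in the male library and at 913 against 36.4 in the female, and the gene called lower in both was Pcsk2, a prohormone convertase that melanotrophs use. Markers of other cell types were mostly lower too: all 5 mesenchymal markers in both libraries (summed level 82.8 against 809 and 54.1 against 683 CPM), all 3 tested melanotroph or corticotroph markers in the male library and 1 of 2 in the female, and 2 of 3 gonadotroph markers in the male library and 0 of 1 in the female. Of 4 tested genes of differentiating cells, 0 and 1 were called lower. No endothelial, immune, blood or pituicyte marker passed the filter, and the summed level of each of these lists was at most 5.58 CPM in barcodes with 2 or more Pou1f1 UMIs.

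Among 20 other genes of the lineage, 13 passed the filter in each library, of which 6 were higher and 1 lower in the male library (median ratio 1.29) and 8 higher and 2 lower in the female library (median 2.88). Neurod4, a basic helix-loop-helix factor expressed in the POU1F1 lineage, was at 71.1 against 5.24 CPM in the male library and at 125 against 3.85 in the female. Ghrhr, the receptor that drives growth hormone release, was at 12.4 against 0.169 and at 21.4 against 0.0520 CPM. Tshb, the specific subunit of thyroid-stimulating hormone, was at 130 against 2.75 and at 980 against 2.30 CPM, or at 12.5 against 2.44 and 24.2 against 1.65 without barcodes of 10 or more Tshb UMIs. Dio2, a deiodinase that activates thyroid hormone, was at 22.4 against 2.56 and at 55.6 against 2.34. Cga, the common subunit of the glycoprotein hormones that gonadotrophs also make, differed in direction between the libraries, with 1459 against 1958 CPM in the male library and 3705 against 331 in the female. The genes with the largest ratios in both libraries beyond the members were Rxrg, a retinoid X receptor (19.5 and 22.2), Tshb (17.4 and 135), Dbpht2 (10.3 and 13.2), Sytl4, which acts in granule exocytosis (9.22 and 10.4), and Chgb (8.12 and 22.2). The lowest were genes of the extracellular matrix and its cells: Col3a1 (0.113 and 0.0889), Dcn (0.120 and 0.124), Col1a1 (0.132 and 0.0773), Itih5 (0.148 and 0.152) and Igfbp7 (0.110 and 0.154).

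At 10 or more UMIs, Prl and Gh were mostly held by different barcodes. Barcodes with 10 or more UMIs of Prl and more Prl than Gh, called Prl-rich, numbered 62 in the male library and 7 in the female, and the corresponding Gh-rich barcodes 298 and 180. The Prl-rich male barcodes had 10 to 2498 Prl UMIs (median 92.5), and 25 of the 62 had any Gh UMI, with at most 40. The 7 female Prl-rich barcodes had 13 to 164 Prl UMIs (median 118), and 2 had a Gh UMI, with at most 3. In the Gh-rich barcodes, Prl reached 29 UMIs in the male library and 5 in the female.

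Barcodes with 10 or more UMIs of both hormone genes numbered 7 of 10410 in the male library (0.0672%, interval 0.0270 to 0.138) and 0 of 5711 in the female library (interval up to 0.0646%). The product of the separate shares would give 1.93 and 0.221 barcodes. The 7 male barcodes had 10 to 143 Prl UMIs and 15 to 699 Gh UMIs, and 6 of them had a Pou1f1 UMI. Within barcodes of 2 or more Pou1f1 UMIs, 63 male barcodes had 10 or more Prl UMIs and 86 had 10 or more Gh UMIs, 5 had both, and the product was 6.67. At limits of 5 UMIs and 1 UMI, 12 and 55 male barcodes of the class had both, against products of 9.57 and 49.8, and after thinning the share at 1 UMI was 2.96% against 3.07%. Of the female barcodes of this class, 5 had 10 or more Prl UMIs, 42 had 10 or more Gh UMIs and 0 had both. At a limit of 1 UMI, 169 male barcodes (1.62%) had both, against a product of 0.929%, and 10 female barcodes (0.175%), against 0.124%. After thinning, the male values were 0.419% against 0.358% and the female values 0.0641% against 0.0551%.

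**Figure D2:**
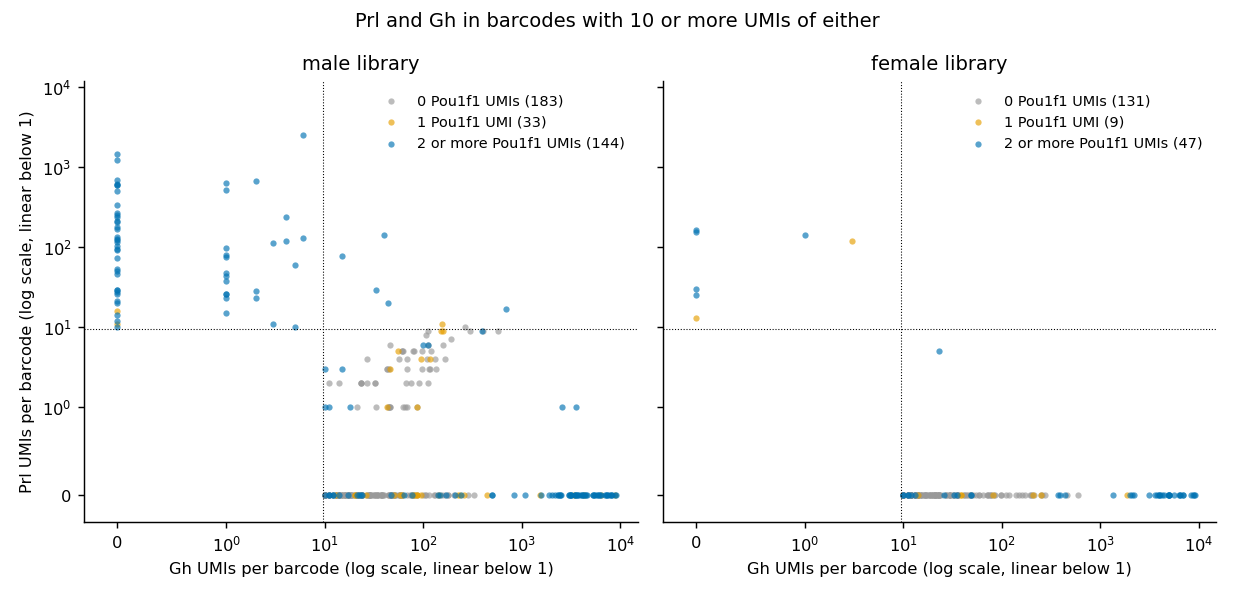
Prl UMIs (vertical axis) and Gh UMIs (horizontal axis) of each barcode with 10 or more UMIs of either gene in the male and the female library, both on a log scale that is linear below 1, coloured by Pou1f1 UMIs, with dotted lines at 10 UMIs. Barcodes lie along the 2 axes, 7 male and 0 female barcodes reach 10 UMIs of both genes, and a band of male barcodes without Pou1f1 carries 1 to 10 Prl UMIs beside Gh.

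Pou1f1 was next counted along the Prl and Gh steps. No Prl-rich barcode lacked Pou1f1 in either library: the 62 male barcodes had 1 to 36 Pou1f1 UMIs (median 13) and the 7 female barcodes 1 to 20 (median 6). In the male library all 39 barcodes with 50 or more Prl UMIs had 2 or more Pou1f1 UMIs. At lower Prl counts most male barcodes lacked Pou1f1: 63.0% of 27 barcodes with 5 to 9 Prl UMIs, 66.7% of 45 with 2 to 4 and 78.4% of 190 with 1. Of the Gh-rich barcodes, 183 of 298 male (61.4%) and 131 of 180 female barcodes (72.8%) had no Pou1f1 UMI. These barcodes had between 10 and 999 Gh UMIs: above 1000, 91.1% of the 56 male and 96.4% of the 28 female barcodes had 2 or more Pou1f1 UMIs, and none lacked Pou1f1. From 100 to 999 Gh UMIs, 60.8% of 51 male and 75.0% of 20 female barcodes lacked Pou1f1, and from 10 to 49 Gh UMIs 81.3% of 144 and 87.1% of 116 did.

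**Figure D3:**
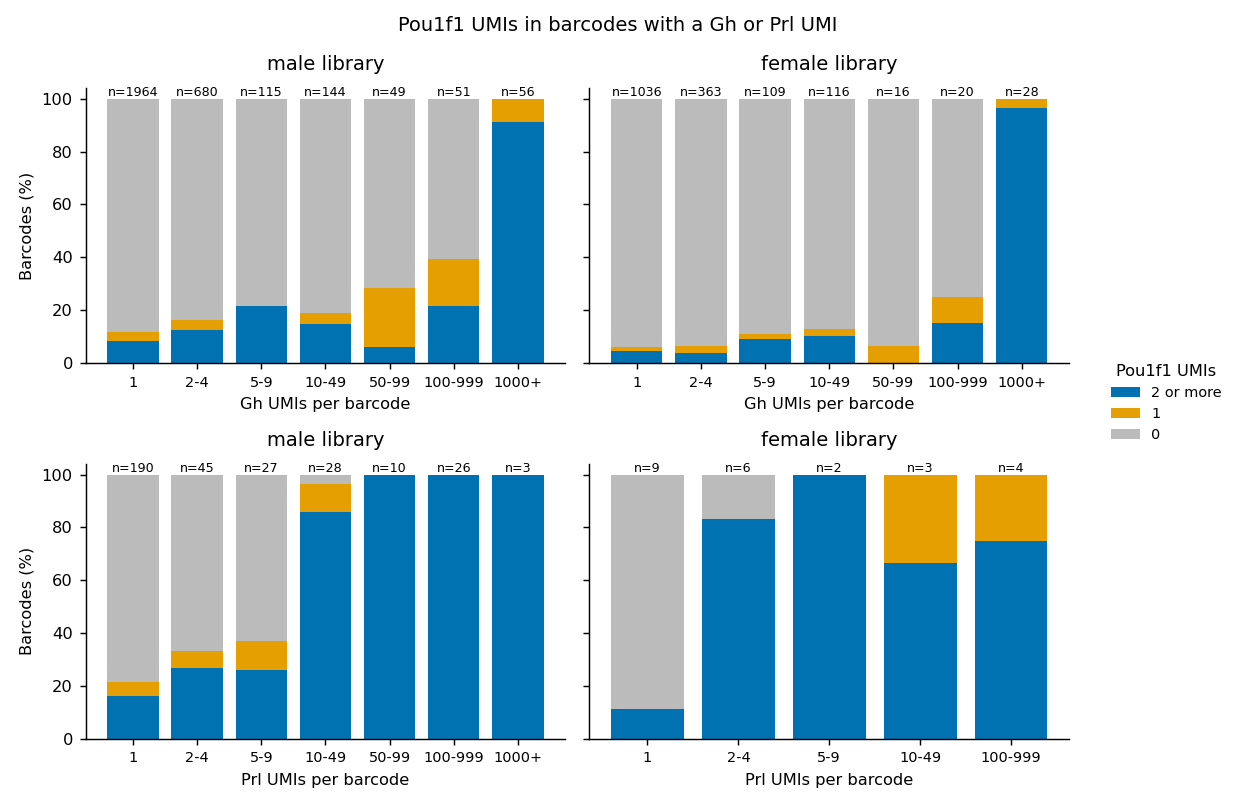
Share of barcodes (vertical axis, percent) with 0, 1 or 2 and more Pou1f1 UMIs, by the number of Gh UMIs (upper row) or Prl UMIs (lower row) in the barcode (horizontal axis), in the male (left) and the female library (right), with the number of barcodes above each bar. Pou1f1 is present in every barcode with 1000 or more Gh UMIs, whereas most barcodes with fewer Gh UMIs lack it, and in the male library Pou1f1 accompanies Prl in all but 1 barcode with 10 or more Prl UMIs.

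The Gh-rich barcodes without Pou1f1 differed in other genes from those with 1000 or more Gh UMIs and 2 or more Pou1f1 UMIs. The 2 groups differ in the amount of Gh as well as in Pou1f1. Gh made up a median of 1.63% of their UMIs in the male library and 0.197% in the female, against 17.4% and 30.7%. Ghrhr was at 3.37 and 1.66 CPM, against 111 and 175, and Chgb at 99.4 and 6.66, against 371 and 717. The SC genes Sox2 and Hes1, a Notch target, were at 521 and 748 CPM in the male library and at 604 and 1232 in the female, against 230 and 368 and against 21.0 and 10.5. Barcodes with 2 or more Pou1f1 UMIs and 10 to 999 Gh UMIs, 33 male and 15 female, had Ghrhr at 14.6 and 9.22 CPM. There Chgb was at 2666 and 1631, Sox2 at 166 and 267 and Hes1 at 161 and 826, so several of these gaps also move with the amount of Gh. None of the Gh-rich barcodes without Pou1f1 was in the cluster with the highest Pou1f1 level. That cluster held only 65 of 9150 male and 27 of 5342 female barcodes without Pou1f1, so a low count follows from the choice of barcodes. Clusters named SC-like from their markers held 33 of 183 male (18.0%) and 69 of 131 female barcodes (52.7%), near their share of all barcodes, 2187 of 10410 (21.0%) and 2722 of 5711 (47.7%). In the male library 99 (54.1%) were in clusters of low UMI number, and 66 (36.1%) had under 2000 UMIs. Of the 183, 59 (32.2%) were in the low-UMI cluster led by Hist1h2ab, which held 9.45% of all male barcodes. Another 39 (21.3%) were in that led by Gm42418 and Gm20721, which held 16.7%. In the female library 2 had under 2000 UMIs. Without barcodes under 2000 UMIs the male share of Gh-rich barcodes that lacked Pou1f1 was 52.9%, and without those under 5000 UMIs 46.9%.

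Prl and Gh were also found at low counts in barcodes of other cell types. In mesenchymal barcodes (10 or more UMIs of Dcn, Col1a1 and Col3a1 together and no Pou1f1), which should make neither hormone, Gh was found in 24.7% of 683 male and 18.2% of 329 female barcodes, at median depths of 8051 and 7930 UMIs. In barcodes with 2 or more Pou1f1 UMIs the shares were 44.1% and 40.0%, at median depths of 13861 and 12512 UMIs. After thinning they were 14.3% and 10.9% in mesenchymal barcodes, 17.8% and 18.2% in all barcodes without Pou1f1, and 27.1% and 28.2% in barcodes with 2 or more Pou1f1 UMIs. Low Gh counts were thus found in all these groups. Among barcodes below 10 UMIs of both hormones, the Gh level was 34.4 and 30.6 CPM in mesenchymal barcodes, 42.0 and 44.3 in all barcodes without Pou1f1 and 49.2 and 47.5 in those with 2 or more Pou1f1 UMIs. The limit of 10 UMIs lowers these levels by construction.

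For Prl the corresponding shares were 1.02% of mesenchymal male barcodes and 0 of 329 female barcodes (interval up to 1.11%), 2.15% and 0.168% of barcodes without Pou1f1, and 13.9% and 4.56% of those with 2 or more Pou1f1 UMIs. After thinning they were 0.611% and 0, 0.725% and 0.0814%, and 11.3% and 3.86%. Below 10 UMIs of both hormones, the Prl level was 1.05 and 0 CPM in mesenchymal barcodes, 1.79 and 0.179 without Pou1f1, and 7.54 and 7.33 with 2 or more Pou1f1 UMIs.

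The ratio of Prl to Gh UMIs is the same in all barcodes of a library if both come from 1 pool of free RNA. In the male library it was 23.6 Prl per 1000 Gh UMIs (9.43 to 49.3) in mesenchymal barcodes and 24.2 (21.7 to 26.9) in all barcodes without Pou1f1, against 54.2 over the whole library. In the female library it was 0 (up to 22.5) in mesenchymal barcodes and 1.10 (0.526 to 2.02) without Pou1f1, against 4.55 over the library. Of the UMIs in male barcodes without Pou1f1, the Gh-rich ones held 197 of 353 for Prl and 10910 of 14575 for Gh. In the female library they held 0 of 10 and 6637 of 9115. The ratio over all barcodes without Pou1f1 thus rests mainly on the Gh of few barcodes. The others are below 10 UMIs of both hormones, and their levels are given above. In the Gh-rich barcodes without Pou1f1 the ratio was 18.1 (15.6 to 20.8) in the male library, where 54 of 183 had a Prl UMI, and 0 (up to 0.556) from 6637 Gh UMIs in the female library. In 33 male Gh-rich barcodes of the same range, 10 to 999 Gh UMIs, with 2 or more Pou1f1 UMIs the ratio was 21.1 (17.1 to 25.7). In the 15 female ones it was 3.39 (1.10 to 7.90), from 5 Prl UMIs in 1 barcode. Above this range, the 51 male barcodes with 1000 or more Gh UMIs and 2 or more Pou1f1 UMIs held 2 Prl UMIs beside 231567 of Gh. The 27 such female barcodes held 0 beside 137565. Within the male library the ratio was not even: in the Gh-rich barcodes without Pou1f1 it was 33.5 in the 66 under 2000 UMIs and 9.33 in the 117 deeper ones. Of their 197 Prl UMIs, 192 lay in the 59 barcodes of a low-UMI cluster led by the histone genes Hist1h2ab and Hist1h2ap, whereas the 39 barcodes of another low-UMI cluster, led by Gm42418, held 0 Prl beside 2814 Gh UMIs. Below 10 UMIs of both hormones and without Pou1f1, the male Gh level fell with depth from 118 CPM at 500 to 1999 UMIs to 34.3 at 20000 and more, and the Prl level from 56.4 to 1.78. In the female library the Gh level was 27.0 in the 92 barcodes of the first of these depths, 80.0 at 2000 to 4999 UMIs and 30.4 at 20000 and more, so that it did not fall throughout. The deposited barcodes are those called as cells and start at about 500 UMIs, so free RNA in droplets without a cell was not analysed here, and the part of free RNA and of doublets in these counts was not tested.

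Most barcodes with 2 or more Pou1f1 UMIs had little of either hormone gene. Of 812 male barcodes, 668 (82.3%, interval 79.5 to 84.8) had under 10 UMIs of both and are called hormone-low, as were 238 of 285 female barcodes (83.5%, 78.7 to 87.6). Of these, 396 male and 163 female barcodes, or 48.8% and 57.2% of the class, had no UMI of either gene. Prl-rich barcodes made up 7.39% of the male and 1.75% of the female class, and Gh-rich barcodes 10.3% and 14.7%. Hormone-low was thus the commonest state of the class in both libraries.

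Pou1f1 was lowest in Gh-rich barcodes in both libraries, and in the male library highest in hormone-low barcodes. Pou1f1 was at 969 CPM in the male and 808 in the female hormone-low barcodes, at 731 and 726 in Prl-rich barcodes and at 349 and 463 in Gh-rich barcodes, of which Gh itself made up 119840 and 173577 CPM. The female Prl-rich value rests on 5 barcodes, and its interval (544 to 950) holds the hormone-low value. As a level is a share of all UMIs, the level of every other gene in Gh-rich barcodes is lowered by the share that Gh takes. The states also differed in depth, with medians of 23737.5 and 16482.5 UMIs in Gh-rich barcodes. In hormone-low barcodes the medians were 13039.5 and 12140. A limit of 2 Pou1f1 UMIs lets deeper barcodes in at lower Pou1f1 levels, and its part in this order was not tested.

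Peg10 and Hepacam2 were highest with Prl, and Pappa2 with Gh. Peg10 was at 809 CPM in the male and 1000 in the female Prl-rich barcodes, against 182 and 143 in hormone-low and 78.7 and 47.4 in Gh-rich barcodes, and was found in 58 of 60 male and 5 of 5 female Prl-rich barcodes. Hepacam2 was at 101 CPM (82.7 to 123) in the male Prl-rich barcodes, at 52.5 in hormone-low and at 16.7 in Gh-rich barcodes. The female levels of Hepacam2, at 54.8 (14.9 to 140), 32.2 and 10.0, came in the same order, but the first rests on 3 of 5 barcodes and its interval holds the second. Pappa2 was at 13.2 CPM (8.62 to 19.3) in the male and 54.9 (39.9 to 73.7) in the female Gh-rich barcodes, found in 19 of 84 and 21 of 42, against 0.992 and 4.14 in hormone-low barcodes, and had no UMI in the 60 male and 5 female Prl-rich barcodes (intervals up to 3.59 and 50.5 CPM). Across barcodes of the class, on a log scale, Peg10 went with Prl (r = 0.40 in 812 male and 0.39 in 285 female barcodes) and Pappa2 with Gh (0.32 and 0.60), whereas Prl and Gh had r of -0.03 and -0.07. These correlations are descriptions, since barcodes of a library share their depth scale and their free RNA.

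**Figure D4:**
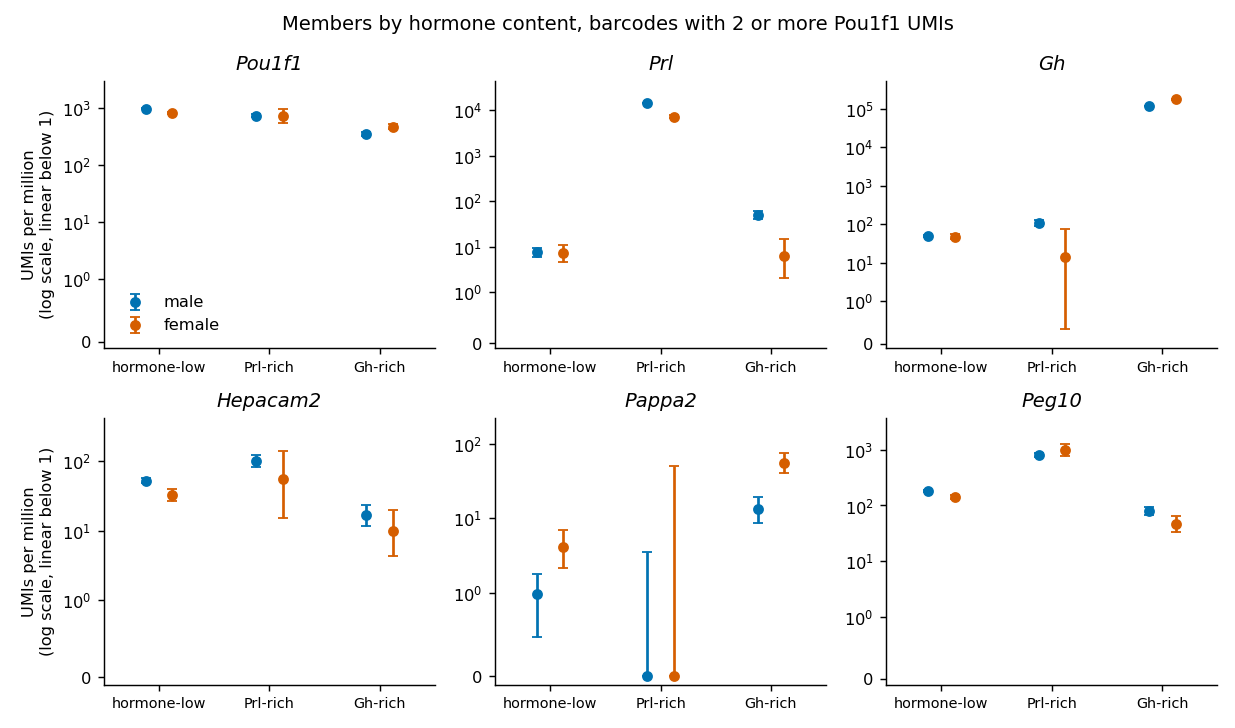
Level of each of the 6 genes in CPM (vertical axis, log scale that is linear below 1) in hormone-low, Prl-rich and Gh-rich barcodes with 2 or more Pou1f1 UMIs (668, 60 and 84 male and 238, 5 and 42 female barcodes), with exact Poisson 95% intervals. Peg10 is highest in Prl-rich and Pappa2 in Gh-rich barcodes of both libraries, and Pou1f1 is lowest in Gh-rich barcodes; the levels of Prl and Gh follow from how the states were defined.

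Of the 20 other lineage genes, 13 were tested between Prl-rich and Gh-rich barcodes of 2 or more Pou1f1 UMIs in the male library, with 2 higher and 3 lower in Prl-rich barcodes, and 10 in the female library, with 2 higher and 3 lower. Over all tested genes, 3.26% were higher and 5.16% lower in the male library, and 13.1% and 14.0% in the female. The lower genes include Tshb, whose Gh-rich level rests on few barcodes, as given below. The receptors Ghrhr, Drd2 and Esr1 are among the 20 lineage genes. Ghrhr was at 80.7 CPM in the male and 107 in the female Gh-rich barcodes, found in 54 of 84 and 28 of 42, but at 0.298 and 0 in hormone-low and 0 in Prl-rich barcodes. Drd2, the dopamine receptor through which prolactin release is held down, was at 38.0 and 54.8 CPM in Prl-rich barcodes, at 3.67 and 3.51 in hormone-low and at 4.06 and 0 in Gh-rich barcodes. Esr1, the oestrogen receptor, was at 29.2 and 41.1 in Prl-rich barcodes, 18.1 and 13.4 in hormone-low and 7.61 and 6.24 in Gh-rich barcodes. Drd2 and Esr1 did not pass the filter between the female Prl-rich and Gh-rich barcodes, and Esr1 was not called between the male Prl-rich and hormone-low barcodes (ratio 1.48). The female Prl-rich values rest on 5 barcodes with 72989 UMIs in all.

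Prl-rich and Gh-rich barcodes were compared over all barcodes and then within those of 2 or more Pou1f1 UMIs, since most Gh-rich barcodes lack Pou1f1. Over all barcodes, 5.51% of 9481 genes were called higher and 8.16% lower in Prl-rich than in Gh-rich barcodes in the male library, 13.7% of 9269 and 23.6% in the female library and 2.48% of 8396 and 7.18% in both. Beyond the members, the largest ratios were those of Nnat (8.05 and 13.2), Scg3 (7.81 and 11.2), Chgb (7.34 and 11.5), Smim18 (6.90 and 7.74) and Tubb3 (6.79 and 21.4), and the smallest those of Hes1 (0.0477 and 0.0168), Crym (0.0739 and 0.0322), Pomc (0.0478 and 0.0755), Mgp (0.0764 and 0.0680) and Zfp36l1 (0.0880 and 0.00808). The Pomc difference rests on few Gh-rich barcodes: 4 of the male barcodes held 15755 of 16310 Pomc UMIs and 1 of the female barcodes 851 of 974. Without barcodes of 10 or more Pomc UMIs, an alternative chosen after the data were seen, Pomc was at 185 and 22.9 CPM in Prl-rich and 144 and 46.4 in Gh-rich barcodes, so that the male direction turned. Within the Pou1f1 class the shares were 3.26% of 9183 and 5.16% in the male, 13.1% of 5421 and 14.0% in the female, and 1.26% of 5178 and 2.86% in both; the female shares rest on 5 Prl-rich barcodes. There, beyond the members, Nnat, an imprinted gene of endocrine and neural cells (ratios 5.16 and 5.44), Tubb3, a neuronal tubulin (4.77 and 13.0), Gnai1, a G protein subunit (4.24 and 5.71), Pcp4, a calmodulin-binding protein (3.88 and 6.54), and Scg3, a granin (4.65 and 3.59), had the largest ratios. Of the secretory granule genes, 6 of 10 tested were higher and 1 lower in the male library and 2 of 7 higher and 1 lower in the female library; Chgb was at 4454 CPM in the male and 3398 in the female Prl-rich barcodes, against 1087 and 1089 in Gh-rich barcodes. SC genes were lower, 4 of 4 tested in the male library and 3 of 3 in the female, with Hes1 at 18.5 and 13.7 against 304 and 342 CPM. Ghrhr, Klf2 (ratios 0.112 and 0.114) and Crym (0.119 and 0.0785) were also lower. Tshb was called lower, at 19.5 and 41.1 against 277 and 984 CPM, but 2 Gh-rich barcodes per library held 529 of 545 and 766 of 788 of its UMIs. Without barcodes of 10 or more Tshb UMIs it was at 8.35 and 29.9 CPM in Gh-rich barcodes, below the Prl-rich level in both libraries. The female Prl-rich level rests on 3 Tshb UMIs, and its interval (8.48 to 120) holds the Gh-rich level. The male intervals, 4.77 to 13.6 with Gh and 11.9 to 30.1 with Prl, overlap. No Prl-rich barcode had 10 or more Tshb UMIs, so only Gh-rich barcodes were left out.

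Against hormone-low barcodes, Gh-rich barcodes had 1.95% of 9175 genes higher and 1.62% lower in the male library, 3.98% of 9078 and 4.9% in the female library and 1.3% of 8314 and 0.878% in both. For Prl-rich against hormone-low barcodes the shares were 2.25% of 9204 and 4.09%, 11.2% of 9145 and 20.7%, and 0.849% of 8247 and 3.08%. Ghrhr led the genes higher with Gh (ratios 16.2 and 22.5), followed by Ptprn, a granule membrane protein (6.19 and 5.85), Caly (5.39 and 5.36), Gpx3, a secreted glutathione peroxidase (5.05 and 5.31), and Dgkk, a diacylglycerol kinase (4.88 and 7.94). Lowest were Neurod1, a basic helix-loop-helix factor (0.192 and 0.0711), Gadd45b (0.245 and 0.240), Cdkn1c, a cell cycle inhibitor (0.303 and 0.245), Nnat (0.305 and 0.302) and Chac1 (0.311 and 0.323). Of 8 cycling genes, 1 was called higher in the male library and 7 in the female. Barcodes with UMIs of at least 2 of these 8 genes made up 40.5% of male and 33.3% of female Gh-rich barcodes, 33.3% and 0% of Prl-rich barcodes, and 19.2% and 10.5% of hormone-low barcodes, whose median depths were 23737.5 and 16482.5, 15963 and 14653, and 13039.5 and 12140 UMIs, so that depth moves with these shares.

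The hormone-low barcodes were not of 1 kind. In the male library 8 and in the female library 6 of them had 10 or more Tshb UMIs, and held 1011 of 1134 and 3072 of 3139 Tshb UMIs of the state. Similarly, 27 male and 3 female barcodes had 10 or more UMIs of Pomc, which corticotrophs and melanotrophs express. They held 21738 of 23176 and 10056 of 10221 Pomc UMIs of the state. Another trait, 10 or more UMIs of mesenchymal markers, was found in 12 male and 1 female barcodes. The remainder had Pou1f1 with under 10 UMIs of each of these hormone genes.

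The libraries differed in the members within the class as well. In barcodes with 2 or more Pou1f1 UMIs, the level in the male over that in the female library was 1.16 for Pou1f1, 7.99 for Prl, 1.69 for Hepacam2, 1.53 for Peg10, 0.522 for Gh and 0.404 for Pappa2, when 0.269% of 8932 genes were called higher and 0.168% lower in the male library. Of the members, only Prl and Pappa2 met this 2-fold rule. By smaller ratios Peg10 and Hepacam2 were also higher in the male class, and Gh in the female class. The female Gh level rests on 27 barcodes with 137565 Gh UMIs. The mix of states differed too: Prl-rich barcodes, where Peg10 was highest, made up 7.39% of the male and 1.75% of the female class. The part of this mix in the gaps was not tested. Tshb was at 130 CPM in the male library and 980 in the female, where 6 hormone-low and 2 Gh-rich barcodes with 10 or more Tshb UMIs held 3072 and 766 of its UMIs. Whether this holds in other animals of either sex was not tested.

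Clusters were found without the 6 members, the other lineage genes and sex-linked genes, and 1 of 18 clusters held most of the Pou1f1. It had 647 male and 258 female barcodes, with Pou1f1 at 869 and 717 CPM and found in 582 of 647 and 231 of 258 of them, and its leading genes were Chgb, Nnat, Rxrg, Pcsk1n and Sytl4. It was left without a cell type name, as no list of markers for this lineage was used to name clusters. It took in 566 of 812 male (69.7%) and 222 of 285 female barcodes (77.9%) with 2 or more Pou1f1 UMIs, 57 of 62 and 6 of 7 Prl-rich barcodes, but 77 of 298 and 34 of 180 Gh-rich barcodes. Hepacam2 was there at 60.4 and 30.5, Peg10 at 263 and 167, and Pappa2 at 3.81 and 12.9 CPM. A cluster led by Pomc had more Gh than it in the female library, at 129637 CPM, but from 9 barcodes. Outside it, Pou1f1 was at 59.9 and 24.7 CPM in a differentiating-like cluster led by Col16a1 and Smoc2, at 30.6 and 49.0 in the gonadotroph-like cluster, at 11.7 and 5.5 in the mesenchymal-like cluster, and at 1.3 and 0.9 in the SC-like cluster led by Ednrb.

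**Figure D5:**
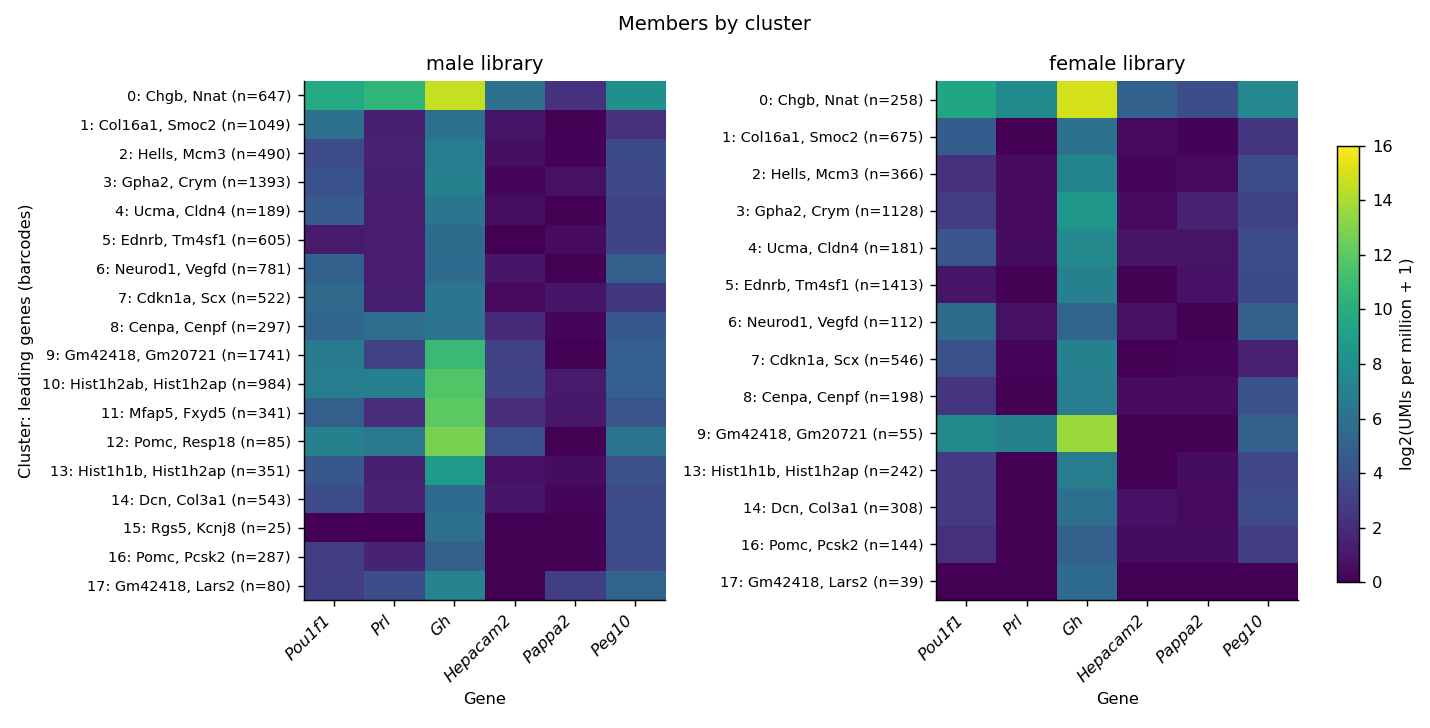
Level of each of the 6 genes (columns) as log2(CPM + 1) in each cluster (rows, with the leading genes and the number of barcodes) of the male and the female library. The cluster led by Chgb and Nnat has the highest Pou1f1 in both libraries, at 869 and 717 CPM, and among the clusters shown also the highest Prl, Gh, Hepacam2 and Peg10.

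Over 32 sums of a cluster in a library with 20 barcodes or more, the genes with the level pattern most like each member were taken from 12214 genes by Pearson's r. They were Neurod4 (0.87), Htatsf1 (0.86), Thrb (0.84), Arhgef28 (0.83) and Prl (0.79) for Pou1f1, and Ghrhr (0.93), Rxrg (0.90), Arhgap36 (0.87), Ccer2 (0.83) and Prl (0.81) for Gh. For Prl they were Ghrhr (0.86), Ccer2 (0.86), Rxrg (0.85), Arhgap36 (0.82) and Gh (0.81), although Ghrhr had no UMI in the Prl-rich barcodes of the class. Sums over clusters thus did not separate Prl from Gh. Few single barcodes had 10 or more UMIs of both. They were a little fewer than the product of the separate shares in the Pou1f1 class. Over all barcodes they were more than the product in the male library and a little fewer in the female. In the Pou1f1 class they were 5 male and 0 female barcodes, against products of 6.67 and 0.737. Over all barcodes they were 7 and 0, against 1.93 and 0.221. For Hepacam2 the first were Tenm1 (0.91) and Car10 (0.90), for Peg10 Rxrg (0.79) and Car10 (0.79), and for Pappa2 Nog (0.87) and Ddx60 (0.75). The points share libraries and free RNA, and 1 cluster is far above the others for most members.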

How the data were processed

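Each of the 2 libraries, 1 per sex, was sequenced by the authors on the 10x Genomics platform and mapped with Cell Ranger 3.0.2 (STAR) to the mm10 transcriptome with eGFP added. They deposited raw UMI counts per gene and barcode, without normalization. Barcodes under 50 genes, and those whose mitochondrial share was over 3 SD above the library mean, were removed here as in the study's methods, 159 male and 85 female. No doublets were removed; Scrublet scores were used in an alternative setting. Per the labels, Seurat 3 and 4 were used upstream; those steps were not repeated, and no column of values was left unused (0).

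Thinned shares are exact expectations over all draws of 5000 UMIs per barcode, so no random draw enters. Clusters came from scanpy 1.11.5 (2000 variable genes less 15 members, lineage and sex-linked genes, 20 components, 20 neighbours, Leiden resolution 1.0) and were named X-like from marker levels (mean score of 0.4 or more and 3 or more markers detected). Clusters of low UMI number, or with more genes of another marker list among their 10 leading genes, stayed unnamed. The SC-like counts thus leave out the clusters led by Hells and Mcm3 and by Cenpa and Cenpf, which scored highest for SC genes. A cluster was held to be of low UMI number if its median was under 33.3% of the library's. Ratios used summed counts with 5 CPM added and were called at 2-fold. Genes needed 10 CPM or more in either group and 20 UMIs or more in both compared groups together. The genes named are the members, the lists, eGFP and, per comparison and direction, the 5 with the largest ratio in both libraries, without mitochondrial, ribosomal, predicted and sex-linked genes. Some list genes enter the counts only and are not reported here by name. The members and lists were chosen with earlier results of these data known. The comparisons among hormone-low, Prl-rich and Gh-rich barcodes of the Pou1f1 class, and of Gh-rich barcodes with and without Pou1f1, were added after the data were seen. Of the steps, only the 2-fold ratio rule and the thinning formula were tested on simulated data. Intervals used scipy 1.17.1 in Python 3.11.15, with numpy 2.4.6, pandas 2.3.3 and matplotlib 3.10.9.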

Additional observations from a re-analysis of the deposited data

How the results depend on the processing

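With 1 library per sex and no test, a value was held to have moved when it left its own counting interval, or, for a number of genes, by over 1.5 times. Of the 134 alternatives for the main values, 103 gave no such move and 31 did, and of 72 for single genes 54 gave none, 15 did and 3 turned the direction. With barcodes of at least 1000 genes, the male share with a Pou1f1 UMI was 13.3%, that with a Gh UMI 33.9%, and the Gh shares with and without Pou1f1 41.8% and 32.7%. With at least 2000 genes these were 13.7%, 36.8%, 44.8% and 35.6%, and the male Prl share with Pou1f1 12.3%. With 2 or more Pou1f1 UMIs in place of 1, the male shares were 44.1% for Gh and 13.9% for Prl. Thinned to 5000 UMIs, the Gh shares with and without Pou1f1 were 25.4% and 17.8% in the male and 26.8% and 18.2% in the female library, and the male Prl share without Pou1f1 0.725%. Thinned to 2000 UMIs, Gh gave 17.2% and 9.32% in the male and 19.0% and 9.96% in the female library, and Prl 7.61% with and 0.496% without Pou1f1 in the male and 0.0332% without Pou1f1 in the female library; fewer UMIs per barcode give fewer detections by construction. At 5 UMIs in place of 10, 0.317% of male barcodes had both hormones. At a resolution of 1.5, the richest cluster had Pou1f1 at 1045 and 752 CPM. With 1 CPM added in place of 5, 456 genes were lower in the male Pou1f1 class, against 293. Alternatives added after seeing the data left out shallow barcodes: without those under 2000 UMIs, 52.9% of male Gh-rich barcodes lacked Pou1f1 and 13.5% of male barcodes had a Pou1f1 UMI, and without those under 5000 UMIs 46.9% and 13.8%. Without barcodes of 10 or more UMIs of the gene, also added, the log2 ratio of Prl-rich over Gh-rich levels turned from -4.42 to 0.36 for Pomc in the male library, and for Tshb with 2 or more Pou1f1 UMIs from -3.83 to 1.22 in the male library and from -4.58 to 0.46 in the female, as few Gh-rich barcodes held most of these UMIs. The female Tshb turn rests on 3 Tshb UMIs in Prl-rich barcodes, and their interval (8.48 to 120 CPM) holds the Gh-rich level. The cause was not tested for the other moves. No paired analysis was possible because each sex has 1 library and the results come from no test. Low counts per barcode limit Hepacam2 and Pappa2. All female Prl values rest on 24 barcodes with a Prl UMI, of which 7 had 10 or more.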
